A study of Rattus norvegicus with 44 samples.

Results

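Secreted plasma and carrier proteins of the liver were followed across 9 metal exposures of H4-II-E-C3 cells, a line derived from a rat hepatoma. The 10 genes were Alb, Afp, Ttr, Rbp4, Tf, Selenop, Ahsg, Serpina1, Apob and Apoa1, taken as the probe sets whose annotation names exactly 1 of them. Of 31042 probe sets that are not array controls, 12 met this condition and covered 9 of the 10 genes, with a pair of probe sets each for Alb, Selenop and Apob. Tf, which encodes transferrin, had none, because both of its probe sets also name Srprb. Of the 12 probe sets, 9 (8 genes) passed a filter on low values and entered the fits, and 3 did not (Apoa1 1368335_at, Apob 1371157_at and Selenop 1387339_at). RefSeq places Alb and Afp on rat chromosome 14, Serpina1 and Apob on 6, Apoa1 and Tf on 8, Rbp4 on 1, Selenop on 2, Ahsg on 11 and Ttr on 18. The genes were proposed with measured results of these same arrays in view, so their own values, calls and p-value counts are a description and support nothing.

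Hepatocytes make most of the protein of blood plasma. These proteins enter the endoplasmic reticulum behind a signal peptide, are folded and glycosylated there and leave through the Golgi apparatus, and they carry fatty acids, hormones, vitamins, iron, selenium and lipids to other tissues or restrain proteases. Their genes are switched on in the liver by a group of transcription factors that includes HNF4, FOXA and C/EBP proteins, and a high output of albumin is a standard sign that cultured liver cells keep hepatocyte functions.

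Cells were exposed for 24 h in serum-free medium to NiCl2 at 40, 140 or 400 µM, Na2Cr2O7 at 0.275, 1 or 10 µM, or CdCl2 at 0.2, 0.55 or 1.2 µM, with 4 biological replicates of each exposure (36 arrays) and 8 arrays of unexposed controls, 2 in each replicate. The methods set the low concentration of each metal where no cell death was seen and the others at graded levels of cell death, so the high concentrations were applied to cultures of 1 line in which some cells died. Values are log2 units of RMA, an array method that corrects background, gives every array the same distribution and summarises the probes of a probe set. A drop in such a value can reflect fewer cells of a kind or less RNA per cell, and the arrays cannot tell these apart. The conditions used here are not those printed on every deposited label. Titles were taken in series order, the 4 titles of repeated microarrays were moved to the end, and each title was given to the column at the same place. Those 4 titles name replicate 4 of 140 and 400 µM nickel and of 0.275 µM chromium, and replicate 2 of 0.55 µM cadmium. Per the methods, samples that failed checks of correlation or linearity between replicates had a new array run from the total RNA. Label and place named the same condition and replicate for 22 of 44 arrays, which include replicates 1 and 2 of all nickel and chromium exposures and of 0.2 µM cadmium, replicate 1 alone of 0.55 and 1.2 µM cadmium, and 6 of 8 controls. With the labels as given, 0 of the 9 members passed the call used below at any high concentration in limma, while 3, 3 and 1 had an unadjusted p under 0.05 in nickel, chromium and cadmium. At the high concentrations replicates 1 and 2 are therefore also shown apart from replicates 3 and 4 for the members.

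As a check of the cell type, 6 of 10 hepatocyte markers passed the filter on low values, among them Cps1 of the urea cycle with a control mean of 13.71. Of 22 markers of Kupffer cells, stellate cells, cholangiocytes and endothelial cells, 1 passed it, Acta2 with a control mean of 6.45. Array medians ranged between 5.93 and 5.99. Replicates 3 and 4 at 400 µM nickel differed from replicates 1 and 2 over all genes: averaged over each pair of replicates, 77 tested probe sets (0.48%) in replicates 3 and 4 were lower by at least 1.8-fold, against 631 (3.94%) in replicates 1 and 2. By its title, replicate 4 there is a repeated microarray, and replicate 3 is not. Control array 2 of replicate 4 also stood apart for these genes, being the lowest of the 8 controls for 6 of 9 members, which held for 19.8% of all tested probe sets.

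Upstream sequences from RefSeq (build GRCr8) were matched by symbol for 8 of the 10 genes, in 9 windows of 250 bases before a listed start. They are shown for Afp and Alb, which lie next to each other with 0 protein-coding genes between them and had mean changes of -0.45 (Alb 1367556_s_at) and -1.75 (Afp) at 400 µM nickel, and for Serpina1, which had the largest drop in chromium and in cadmium. Each is written 5′ to 3′ in the direction of the gene, and capitals mark CCAAT or its reverse complement ATTGG, a promoter box bound by NF-Y.
Afp promoter, chr14:17875646-17875895 (strand -): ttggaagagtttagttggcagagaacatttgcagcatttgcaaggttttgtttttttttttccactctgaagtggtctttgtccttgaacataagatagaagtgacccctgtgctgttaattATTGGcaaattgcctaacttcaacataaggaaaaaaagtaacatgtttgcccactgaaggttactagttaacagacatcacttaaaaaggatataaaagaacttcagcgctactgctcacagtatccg
Alb promoter, chr14:17906980-17907229 (strand -): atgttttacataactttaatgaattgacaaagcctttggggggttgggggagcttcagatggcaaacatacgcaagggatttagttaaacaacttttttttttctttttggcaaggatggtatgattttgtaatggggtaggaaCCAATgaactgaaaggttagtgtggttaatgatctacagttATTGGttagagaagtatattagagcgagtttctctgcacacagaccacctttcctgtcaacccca
Serpina1 promoter, chr6:128653126-128653375 (strand -): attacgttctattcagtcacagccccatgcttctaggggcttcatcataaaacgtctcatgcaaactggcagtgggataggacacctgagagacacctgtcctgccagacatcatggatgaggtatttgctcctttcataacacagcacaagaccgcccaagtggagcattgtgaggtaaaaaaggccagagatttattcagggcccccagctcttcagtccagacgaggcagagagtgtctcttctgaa
The box, searched on both strands, began 128 bases before the listed start of Afp and 106 and 65 bases before that of Alb, and it was absent from the window of Serpina1. Among the 8 genes it was found for Afp, Alb and Tf, and 34.0% of all 33469 RefSeq windows of that length held it. TATAAA, also searched on both strands, was found for Afp, Rbp4, Selenop and Tf, and in 12.9% of all windows. ACGTG, searched likewise and the core bound by hypoxia-inducible factors, was found in 0 of the 9 windows and in 16.6% of all windows. None of the 3 motifs contains another. A match in letters is no evidence of a bound factor, and a missing match concerns these letters in this window only.

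At the high concentrations most members were lower than in controls. Which of them were called lower differed by metal, but the metals were not tested against each other. A call here means an adjusted p of at most 0.05 from limma, fitted for each metal over all tested probe sets with the replicate as a block. At 400 µM nickel, 6 of 9 members were called lower and 1, Ahsg, higher, where 16.5% of all tested probe sets were called lower and 23.5% higher. At 10 µM chromium, 5 of 9 were called lower and 0 higher, where all tested probe sets had 19.2% lower and 23.0% higher. At 1.2 µM cadmium, 6 of 9 were called lower and 0 higher, beside 13.9% and 23.9% of all tested probe sets. The median log2 change over the 9 members was -0.66 in nickel, -0.57 in chromium and -0.38 in cadmium, against 0.02, 0.02 and 0.04 over all tested probe sets. The members were chosen on these same contrasts, so nothing is read from those counts. In nickel the count rested on replicates 1 and 2: without replicate 1, 3 members were called lower (Afp, Ttr and Serpina1), without replicate 2 it was 2 (Afp and Ttr), and in replicates 3 and 4 alone it was 2. In cadmium 2 were called lower (Serpina1 and Apob) when all 3 metals shared 1 fit. With each array centred on its median, the share of lower calls among all calls was 51.5% in nickel, 49.5% in chromium and 56.4% in cadmium, against 41.3%, 45.5% and 36.7% as deposited. Under the threshold of the methods (an FDR of at most 0.001 for the concentration term and a 1.8-fold change), 0 members passed in nickel (0.568% of all tested probe sets passed as lower), 4 in chromium (1.58%) and 2 in cadmium (0.399%). The 3 metals share the same 8 control arrays.

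**Figure D1:**
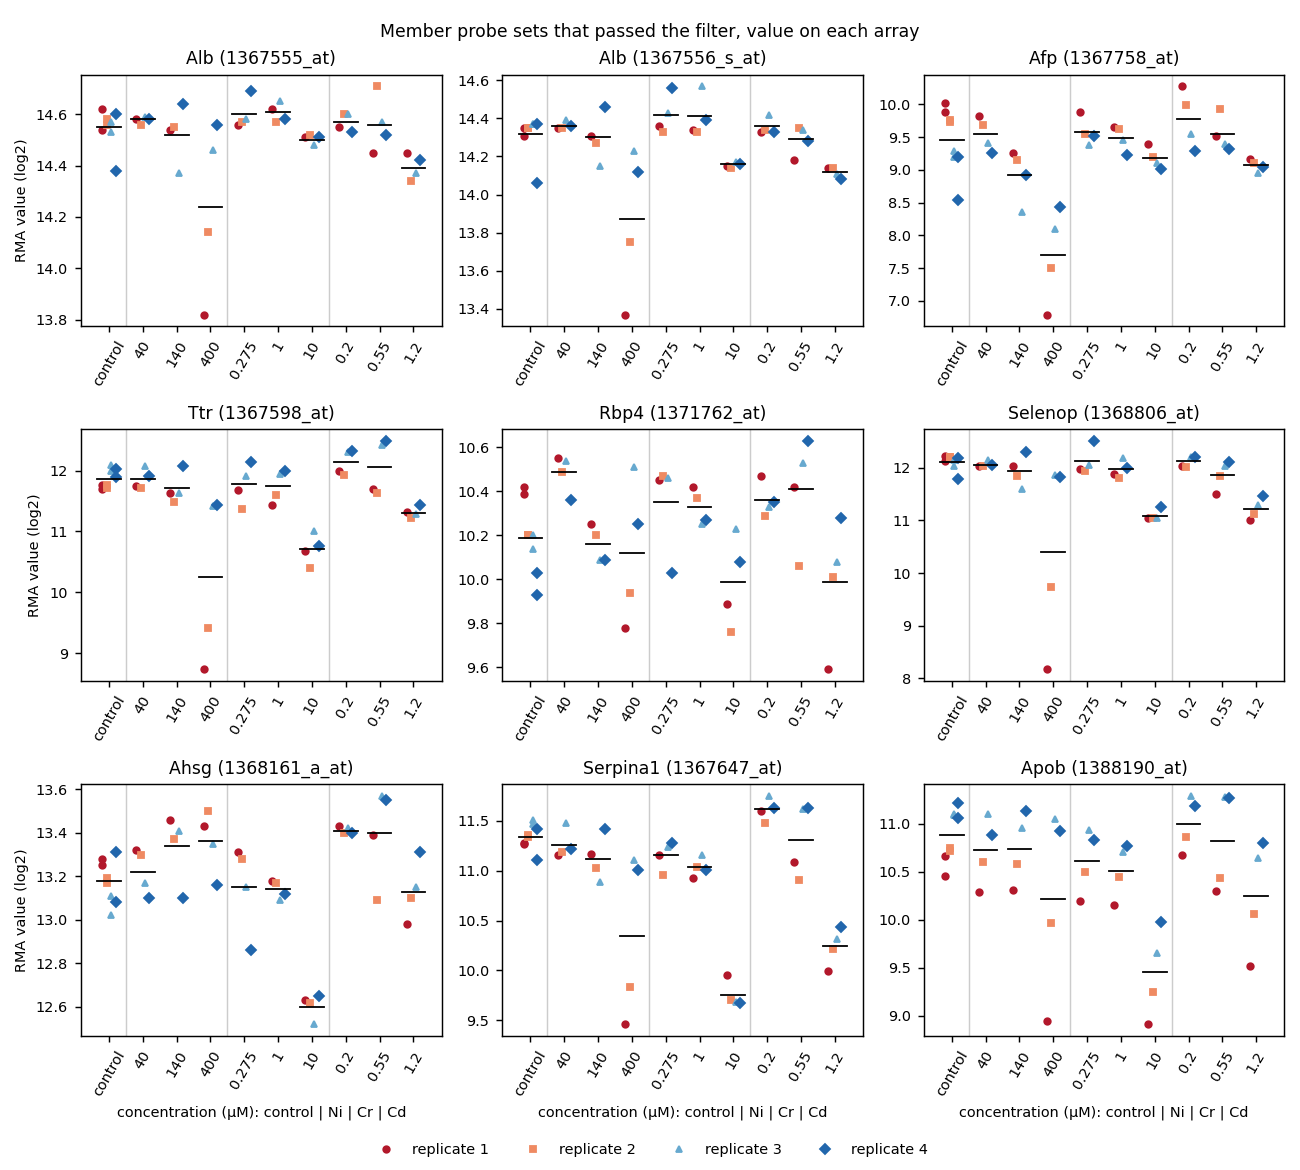
RMA values (log2) of the 9 member probe sets that passed the filter, on each of the 44 arrays; the x axis gives the controls and then the 3 concentrations (µM) of nickel, chromium and cadmium from low to high. Points are arrays coloured by replicate and black lines are group means; at 400 µM nickel the points of replicates 1 and 2 lie below those of replicates 3 and 4 for every probe set but Ahsg.

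Albumin and alpha-fetoprotein are neighbouring genes of 1 family. Alb encodes the main protein of adult plasma, a carrier of fatty acids and metal ions, and Afp encodes its fetal counterpart, which hepatomas often make. Afp (1367758_at) read 6.79, 7.50, 8.10 and 8.43 in replicates 1 to 4 at 400 µM nickel, against controls between 8.54 and 10.02 with a median of 9.51. All 4 nickel arrays were thus below all 8 controls, as they were for 6.16% of all tested probe sets. The change of each array from the mean control of its own replicate was -3.16, -2.24, -1.14 and -0.44, with a mean of -1.75 ± 1.20 (SD, n = 4). At 140 µM nickel the Afp change was -0.53 ± 0.41 and was not called, with 3 of 4 replicates lower. Chromium and cadmium left Afp closer to its controls. Its change was -0.27 ± 0.34 at 10 µM chromium, which was not called. Without replicate 4, without control array 2 of replicate 4 or in replicates 1 and 2 only, Afp was called lower in chromium. At 1.2 µM cadmium the Afp change was -0.38 ± 0.43, which was called. That cadmium call was lost without replicate 1, 2 or 3, without the replicate block, in a single fit of all 3 metals or with all probe sets tested. The 4 cadmium arrays, between 8.95 and 9.16, lay inside the control range through control array 2 of replicate 4 alone, as the other 7 controls read 9.19 to 10.02.

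Albumin had a smaller mean change than Afp at 400 µM nickel, a difference that was not tested. Its probe set 1367556_s_at read 13.37, 13.75, 14.23 and 14.12 at 400 µM nickel, against controls between 14.06 and 14.37 with a median of 14.35. Replicates 1 and 2 lay below every control, while replicates 3 and 4 were above control array 2 of replicate 4 and below the other 7, which read 14.31 to 14.37. The mean change was -0.45 ± 0.41, a call that was lost without replicate 1 or 2. The other probe set, 1367555_at, had a change of -0.31 ± 0.37 and was not called. It was called lower without replicate 4, without control array 2 of replicate 4 or in replicates 1 and 2 only. A single fit of all 3 metals and median-centred arrays also gave that call. In cadmium at 1.2 µM the same pair read -0.20 ± 0.05 (called) and -0.15 ± 0.07 (not called), lower in 4 of 4 replicates for both. The call of 1367556_s_at was lost without replicate 3 or in a single fit of all 3 metals. With median-centred arrays or without control array 2 of replicate 4, 1367555_at was called lower. In chromium at 10 µM they had -0.16 ± 0.08 and -0.04 ± 0.04, neither of them called. Without replicate 4 or without control array 2 of replicate 4, 1367556_s_at was called lower in chromium. Both probe sets lie near the top of the scale, where the highest value of the whole table is 14.93, and a loss of signal range there was not tested.

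Transthyretin and retinol-binding protein travel in plasma as 1 complex: Ttr carries thyroxine and also binds Rbp4, which carries vitamin A. Ttr (1367598_at) read 8.73, 9.42, 11.42 and 11.44 at 400 µM nickel, against controls between 11.70 and 12.10 with a median of 11.83, so that all 4 arrays were below all controls. The changes were -3.00, -2.32, -0.62 and -0.52, a mean of -1.62 ± 1.24. In chromium at 10 µM Ttr read 10.68, 10.40, 11.00 and 10.76, again below all controls, with a change of -1.16 ± 0.14. At 1.2 µM cadmium it read 11.32, 11.22, 11.28 and 11.43, below all controls as well, with a change of -0.56 ± 0.15. The non-overlap seen there for Ttr held for 12.0% of all tested probe sets in chromium and 7.09% in cadmium. Rbp4 (1371762_at) was not called in any of the 9 exposures, though in replicates 1 and 2 alone it was called lower at the high concentrations of nickel and chromium. Its change was -0.07 ± 0.46 in nickel, -0.20 ± 0.32 in chromium and -0.20 ± 0.46 in cadmium at the high concentrations, and in each metal replicate 1 had the lowest change. The difference between Ttr and Rbp4 was not tested.

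Selenoprotein P delivers selenium from the liver to other tissues. Selenop (1368806_at) had the widest spread of all members at 400 µM nickel, with 8.17, 9.73, 11.87 and 11.83, against controls between 11.78 and 12.22 with a median of 12.17. Replicates 1 and 2 were far below every control and replicates 3 and 4 lay inside the control range through control array 2 of replicate 4 alone, as the other 7 controls read 12.04 to 12.22. The changes were -4.00, -2.47, -0.22 and -0.15, so the mean of -1.71 ± 1.87 describes no single replicate. In chromium at 10 µM Selenop read 11.04, 11.04, 11.04 and 11.25, all below the controls, with a change of -1.02 ± 0.19. In cadmium at 1.2 µM it read 11.00, 11.12, 11.29 and 11.47, also below all controls, with a change of -0.89 ± 0.30. The other Selenop probe set, 1387339_at, which did not pass the filter, had high-concentration means of 4.50, 4.43 and 4.33 in nickel, chromium and cadmium, against 4.59 in controls.

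Fetuin-A, the product of Ahsg, is a plasma glycoprotein that keeps calcium phosphate from precipitating. It was the member with a change of the opposite sign in nickel and chromium. At 10 µM chromium Ahsg (1368161_a_at) read 12.63, 12.62, 12.52 and 12.65, against controls between 13.02 and 13.31 with a median of 13.18. All 4 arrays were below the controls and the change of -0.57 ± 0.04 had the smallest spread among the called members in chromium. At 400 µM nickel Ahsg read 13.43, 13.50, 13.35 and 13.16, with 3 of 4 above all controls and a change of 0.19 ± 0.16, a call that was lost without replicate 1, 2 or 3, in a single fit of all 3 metals, without the replicate block, with the arrays centred on their medians or with all probe sets tested. At 1.2 µM cadmium the Ahsg change was -0.04 ± 0.18 and was not called.

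Alpha-1-antitrypsin, encoded by Serpina1, is the main plasma inhibitor of neutrophil elastase. Serpina1 (1367647_at) read 9.95, 9.70, 9.68 and 9.67 at 10 µM chromium, against controls between 11.11 and 11.51 with a median of 11.35. That is a change of -1.60 ± 0.20, or 3.02-fold lower. At 1.2 µM cadmium it read 9.99, 10.21, 10.32 and 10.44, all below the controls, with a change of -1.10 ± 0.19. At 400 µM nickel it read 9.46, 9.83, 11.11 and 11.01. Replicates 1 and 2 were below every control there and replicates 3 and 4 were at or just below the lowest control, array 2 of replicate 4, and below the other 7, which read 11.27 to 11.51. The change was -0.99 ± 0.79.

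Apolipoprotein B is the structural protein of very low density and low density lipoproteins, and apolipoprotein A-I is that of high density lipoprotein. Apob (1388190_at) read 8.91, 9.25, 9.65 and 9.98 at 10 µM chromium, against controls between 10.45 and 11.21 with a median of 10.90. All 4 arrays were below the controls, and the change of -1.43 ± 0.20 corresponds to 2.70-fold lower. In cadmium at 1.2 µM Apob had 9.52, 10.06, 10.64 and 10.80, a change of -0.62 ± 0.31, with replicates 3 and 4 inside the control range. In nickel at 400 µM it had 8.94, 9.97, 11.05 and 10.92, a change of -0.66 ± 0.71, and again replicates 3 and 4 were inside that range. The Apob calls in cadmium and nickel were lost without the replicate block, and that in nickel also without replicate 1 or 2. Apob was also the member that was lower in 4 of 4 replicates at all 3 chromium concentrations, with -0.27 ± 0.09 at 0.275 µM and -0.37 ± 0.05 at 1 µM, neither of them called. Its other probe set, 1371157_at, which did not pass the filter, had changes of -0.19, -0.20 and -0.21 at the high concentrations of nickel, chromium and cadmium.

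Apoa1 (1368335_at) was the member that was higher in cadmium at every concentration, and it did not pass the filter because its signal was low. At 0.2 µM cadmium it read 5.74, 5.75, 6.44 and 6.33, against controls between 5.08 and 5.71 with a median of 5.25. All 4 arrays were above all 8 controls, as for 0.874% of all tested probe sets, which do not include Apoa1. The change was 0.72 ± 0.23 at 0.2 µM, 1.21 ± 0.66 at 0.55 µM and 0.88 ± 0.29 at 1.2 µM, higher in 4 of 4 replicates each time. The highest Apoa1 value was 7.18, in replicates 3 and 4 at 0.55 µM, where replicate 1 was at 5.40, inside the control range. Replicate 2 at 1.2 µM, at 5.64, was inside that range as well. In nickel and chromium at the high concentrations Apoa1 had -0.14 ± 0.62 and -0.19 ± 0.41. Its replicates went in opposite directions there, with -0.44 and -0.83 in replicates 1 and 2 of nickel and 0.13 and 0.58 in replicates 3 and 4.

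Transferrin, the iron carrier of plasma, can be followed only together with Srprb, which encodes a subunit of the signal recognition particle receptor. The shared probe set 1370228_at read 13.04, 13.23, 13.46 and 13.15 at 400 µM nickel, against controls between 12.27 and 12.60, with a change of 0.75 ± 0.13. The other shared probe set, 1391323_at, had 0.92 ± 0.25 in that exposure. At 140 µM nickel they had 0.48 ± 0.24 and 0.77 ± 0.15, with all 4 arrays above all controls for both, as for 2.90% of all tested probe sets there and 10.2% at 400 µM. At 1.2 µM cadmium they had -0.52 ± 0.17 and -0.28 ± 0.15. Srprb alone is named by 3 further probe sets, 2 of which were tested, and only the tested one with the highest mean is given here. Its fit gave 0.20 ± 0.07 (log2 change and standard error) in nickel, with an adjusted p of 0.025 in limma. In cadmium it gave 0.14 ± 0.08, with an adjusted p of 0.16. Which of both genes the shared probe sets measured was not tested. A further probe set, 1371237_a_at, names Ttr beside the metallothioneins Mt1f and Mt1, small proteins that bind heavy metals. It rose in all 3 metals at the high concentration, by 4.54 ± 0.68 in nickel, 2.01 ± 0.40 in chromium and 5.88 ± 0.39 in cadmium, where the probe set of Ttr alone was lower.

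**Figure D2:**
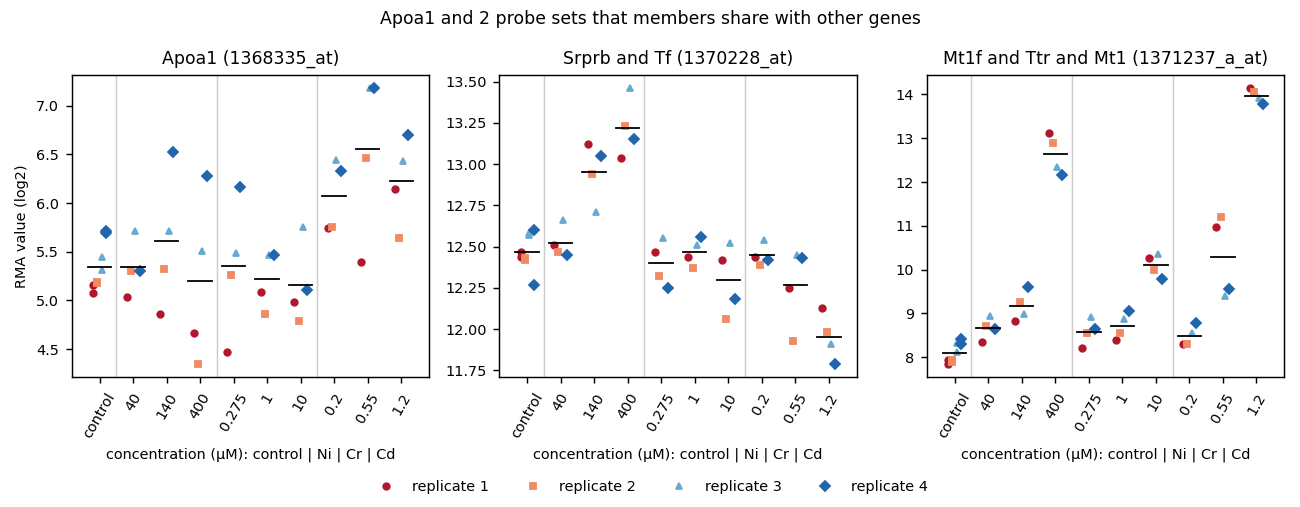
RMA values (log2) on each array for Apoa1, for a probe set shared by Srprb and Tf, and for the probe set shared by Mt1f, Ttr and Mt1; the x axis gives the controls and then each metal's concentrations (µM) from low to high, and black lines are group means. Apoa1 lies above its control mean in all 12 cadmium arrays, the Srprb and Tf probe set is above all controls at 140 and 400 µM nickel, and the metallothionein probe set reaches 13.97 on average at 1.2 µM cadmium.

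For most members the nickel changes at the high concentration spread more between replicates than those of the other metals. Ahsg (SD 0.16 in nickel and 0.18 in cadmium) and Rbp4 (0.46 in both) did not spread more in nickel than in cadmium. At 400 µM nickel, 5 of 9 members (Afp, Ttr, Selenop, Serpina1 and Apob) were lower by at least 1.8-fold on average in replicates 1 and 2, and 0 of 9 in replicates 3 and 4. This held for 3.94% and 0.48% of all tested probe sets. Selenop was 9.42-fold lower in replicates 1 and 2 and 1.14-fold lower in replicates 3 and 4. For Afp the values were 6.50-fold and 1.73-fold, and for Ttr 6.33-fold and 1.49-fold. In 10 µM chromium the same comparison gave 4 of 9 members in both pairs of replicates, beside 1.43% of all tested probe sets in replicates 1 and 2 and 2.53% in replicates 3 and 4, with Serpina1 2.81-fold and 3.25-fold lower. In 1.2 µM cadmium it was 3 of 9 in replicates 1 and 2 and 1 of 9 in replicates 3 and 4, beside 0.686% and 0.399% of all tested probe sets. The metallothionein probe set rose by 5.11 in replicates 1 and 2 and by 3.96 in replicates 3 and 4 of nickel. For replicates 1 and 2 of nickel the labels and the column order name the same arrays, whereas the numbers of replicates 3 and 4 rest on the order alone. The contrast between both pairs of replicates was not tested.

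**Figure D3:**
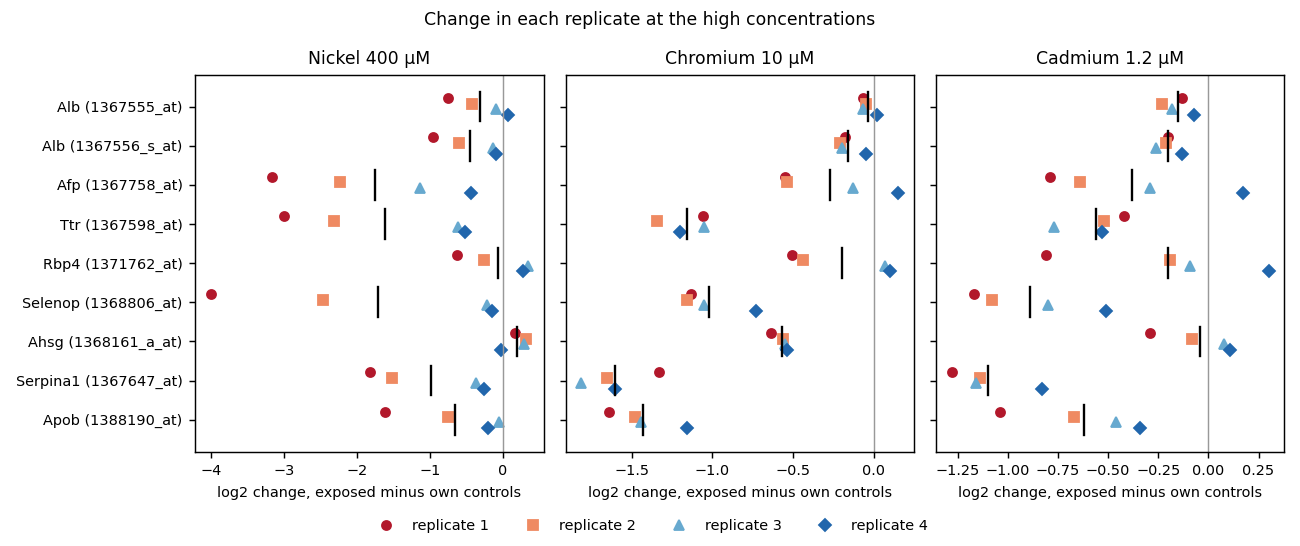
Log2 change of each exposed array from the mean of the 2 control arrays of its replicate (x axis), for the 9 members that passed the filter (rows), at the high concentration of each metal; points are replicates and black bars are means. In nickel, replicates 1 and 2 reach -4.00 and -2.47 for Selenop while replicates 3 and 4 stay at -0.22 and -0.15; in chromium the 4 points of each called member lie close together.

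At the low and middle concentrations 0 of 9 members were called in any metal. At 140 µM nickel, where 0.780% of all tested probe sets were called lower and 2.57% higher, 8 of 9 members had a mean below controls and Afp the lowest. An unadjusted p under 0.05 in limma was found for 1 member (Ahsg, higher), beside 18.7% of all tested probe sets. At 0.55 µM cadmium, with 2.26% and 8.29% called, the unadjusted p was under 0.05 for Selenop (lower) and Ahsg (higher), beside 29.2% of all tested probe sets. There the mean changes of replicates 1 and 2 and of replicates 3 and 4 had opposite signs for 7 of 9 members, all but Ahsg and Alb 1367555_at. Among them were Serpina1, with -0.31 and 0.25, Apob, with -0.28 and 0.16, and Ttr, with -0.07 and 0.45. At 0.2 µM cadmium, where 0.312% were called lower and 0.168% higher, 9 of 9 members had a mean above that of controls. Afp (0.32 ± 0.07), Ttr (0.27 ± 0.07), Serpina1 (0.27 ± 0.10), Ahsg (0.23 ± 0.08), Rbp4 (0.17 ± 0.14) and Apob (0.12 ± 0.06) were higher in 4 of 4 replicates. The first 4 of these had an unadjusted p under 0.05, beside 9.80% of all tested probe sets. Ahsg at this concentration had all 4 arrays above all 8 controls, as did 0.874% of all tested probe sets. At 1 µM chromium, with 0.0125% called lower and 0.0312% higher, Apob and Serpina1 were lower in 4 of 4 replicates. Both had an unadjusted p under 0.05, beside 8.19% of all tested probe sets. The low concentrations of nickel and chromium had 0% of tested probe sets called in either direction, with an unadjusted p under 0.05 for 3.85% and 9.32% of them, and for Rbp4 (0.30 ± 0.10 at 40 µM nickel) and Apob among the members.

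Over the 10 conditions the lowest mean of each of the 9 members was at a high concentration, and the highest mean of Afp, Ahsg, Apob, Serpina1 and Ttr was at 0.2 µM cadmium. Ttr had its lowest mean at 400 µM nickel (10.25), then at 10 µM chromium (10.71) and 1.2 µM cadmium (11.31), and its highest at 0.2 µM cadmium (12.14). The Ttr mean at 400 µM nickel did not separate from those at 10 µM chromium and 1.2 µM cadmium. Its nickel arrays spread on both sides of those of each. For Serpina1 the order was 10 µM chromium (9.75), 1.2 µM cadmium (10.24) and 400 µM nickel (10.35) at the low end and 0.2 µM cadmium (11.62) at the high end. The place of nickel in that order is not settled, because its Serpina1 arrays spread on both sides of those of chromium and of cadmium. Selenop had 10.40 at 400 µM nickel, 11.09 at 10 µM chromium and 11.22 at 1.2 µM cadmium, and the arrays of each of these overlapped with those of the next. Afp had 7.70 at 400 µM nickel and 8.92 at 140 µM nickel as its lowest means, whose arrays overlapped, and 9.77 at 0.2 µM cadmium as its highest. Between 9.07 and 9.58 lay the other 6 exposures of Afp and its controls, in which neighbours overlapped.

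More of the other plasma proteins fell than rose in each metal. From lists of 52 genes that were drawn up with earlier results of these data known, 40 were tested with 1 probe set each. In chromium 31 fell and 0 rose, in cadmium 26 fell and 5 rose, and in nickel 19 fell and 3 rose. Of all tested probe sets, 19.2% were called lower and 23.0% higher in chromium, 13.9% and 23.9% in cadmium, and 16.5% and 23.5% in nickel. A departure of the lists from these shares was not tested. Among the protease inhibitors, 14 of 14 fell in chromium, 14 of 14 in cadmium and 10 of 14 in nickel, with medians of -0.88, -0.75 and -0.84 against 0.02, 0.04 and 0.02 over all tested probe sets. Itih4, an inter-alpha-trypsin inhibitor heavy chain, fell by 2.32 in chromium (limma, standard error 0.23, adjusted p = 5.5e-06). In cadmium it fell by 1.55 (standard error 0.20, adjusted p = 6.6e-05). Serpind1, heparin cofactor II, had the largest fall of the list in nickel, at -1.60 (standard error 0.35, adjusted p = 0.0027). A2m, alpha-2-macroglobulin, rose in nickel by 0.63 (standard error 0.21, adjusted p = 0.03) and fell in chromium by 0.92 and in cadmium by 0.60. The A2m calls in nickel and cadmium were lost without replicate 2, 3 or 4 and without the replicate block, which also ended the one in chromium. In nickel the count of falls rested on replicates 1 and 2. Without replicate 1, 5 of the 40 genes fell, without replicate 2 it was 4, and in replicates 3 and 4 alone 2 fell and 6 rose.

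Carriers and apolipoproteins were less uniform. Of 16 tested carriers and binding proteins 7 fell and 2 rose in nickel, 11 fell and 0 rose in chromium, and 7 fell and 3 rose in cadmium. All tested probe sets had 16.5% lower and 23.5% higher in nickel, 19.2% and 23.0% in chromium and 13.9% and 23.9% in cadmium. Azgp1, zinc-alpha-2-glycoprotein, fell by 1.57 in nickel (adjusted p = 0.00086 from limma), by 1.44 in chromium (adjusted p = 1.4e-07) and by 0.48 in cadmium (adjusted p = 0.013). Its cadmium call was lost without replicate 1 or 2, without the replicate block and in a single fit of all 3 metals. Gc, the vitamin D-binding protein, fell by 0.82 in chromium and 0.69 in cadmium, and both calls were lost without the replicate block. The rises in cadmium were those of Clu, the extracellular chaperone clusterin, at 2.25 (standard error 0.07, adjusted p = 2.5e-10), of Lcn2, an iron-siderophore binding lipocalin of the acute phase response, at 1.93 (standard error 0.10, adjusted p = 3.4e-08), and of Gpx3, the plasma selenoenzyme glutathione peroxidase, at 0.49. Lcn2 also rose in nickel, by 1.05 (standard error 0.30, adjusted p = 0.015), a call that was lost without replicate 1 or 2 and without the replicate block. Of 10 tested apolipoproteins and lipoprotein enzymes 2 fell in nickel, 6 in chromium and 5 in cadmium, beside the same shares of all tested probe sets. The 2 of 10 in nickel are near the 16.5% of all tested probe sets called lower there. Pon3, a paraoxonase of high density lipoprotein, fell by 1.68 in chromium and 0.87 in cadmium. Angptl4, an inhibitor of lipoprotein lipase, rose by 0.89 in cadmium (standard error 0.12, adjusted p = 8.0e-05). The control means of Angptl4 (5.27) and Lcn2 (5.78) were under the filter value of 5.91. Both genes were thus tested only because exposed arrays were higher, and their rises are a description. Apoc2 rose in cadmium by 0.28. That call was lost without replicate 1, 3 or 4, without the replicate block, in a single fit of all 3 metals or with median-centred arrays.

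The proteins that receive, load or help to make the members had calls in both directions. Mttp, which loads lipid onto apolipoprotein B, fell by 1.36 in nickel (limma, standard error 0.31, adjusted p = 0.0037), by 0.78 in chromium (0.08, adjusted p = 5.3e-06) and by 0.55 in cadmium (0.09, adjusted p = 0.00028). Its cadmium call was lost in a single fit of all 3 metals. P4hb, protein disulfide isomerase and the partner subunit of Mttp, rose by 0.81 in nickel and fell by 0.27 in chromium. The call of that fall was lost without replicate 2 or 3 and without the replicate block. Tfrc, the transferrin receptor, rose by 0.41 in nickel (adjusted p = 0.0028) and fell by 0.27 in chromium (adjusted p = 0.0048) and by 0.54 in cadmium (adjusted p = 9.0e-05). Lrp8, a receptor of selenoprotein P in mouse brain and testis, rose by 1.05 in nickel and by 0.61 in chromium, and Lrp2, a renal receptor of carrier proteins, fell in all 3 metals by 0.37 to 0.48. The control mean of Lrp2 (5.99) was close to the filter value of 5.91, so its falls lay at low signal. Sephs2, which makes the selenium donor for selenoproteins, fell by 0.63 in nickel. Over the whole list of 15 tested genes, 5 rose and 4 fell in nickel, 2 rose and 7 fell in chromium, and 3 rose and 4 fell in cadmium, where 1 rose without replicate 3. All tested probe sets had 23.5% higher and 16.5% lower in nickel, 23.0% and 19.2% in chromium and 23.9% and 13.9% in cadmium, and a departure of the list from these shares was not tested.

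Of 39 tested genes of signal recognition, translocation, signal peptide removal and vesicle transport, 20 rose and 2 fell in nickel, 19 rose and 1 fell in cadmium, and 6 rose and 7 fell in chromium. These counts stand beside the same shares of all tested probe sets, in which rises also outnumbered falls in each metal. In cadmium 8 rose without replicate 3 and 11 without replicate 4. The medians were 0.20 in nickel, 0.18 in cadmium and 0.04 in chromium. Sec63 of the translocon rose by 0.71 in nickel (limma, standard error 0.08, adjusted p = 2.0e-05), and Sar1a, the GTPase of vesicles that leave the endoplasmic reticulum, rose by 0.70 in cadmium (0.06, adjusted p = 2.8e-06) and 0.42 in chromium. Sec24d, a cargo adaptor of those vesicles, fell by 0.58 in chromium (0.08, adjusted p = 7.2e-05) and rose by 0.36 in nickel.

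More liver transcription factors fell than rose in each metal. Of 13 tested, 8 fell and 1 rose in nickel, 8 fell and 0 rose in chromium, and 6 fell and 1 rose in cadmium, with medians of -0.44, -0.44 and -0.26. All tested probe sets had 16.5% lower and 23.5% higher in nickel, 19.2% and 23.0% in chromium and 13.9% and 23.9% in cadmium. A departure from these shares was not tested. In nickel 2 fell without replicate 1, 2 without replicate 2 and 3 without the replicate block. Hnf4a, a nuclear receptor that controls many plasma protein genes, fell by 0.70 in nickel (limma, standard error 0.24, adjusted p = 0.032), by 0.59 in chromium (0.07, adjusted p = 1.6e-05) and by 0.30 in cadmium (0.07, adjusted p = 0.0064). Its nickel call was lost without replicate 1 or 2 and without the replicate block. Its cadmium call was lost without replicate 1 and in a single fit of all 3 metals. Zbtb20, a repressor of Afp in mouse liver, fell by 0.85 in chromium and 0.43 in cadmium, and Prox1 fell in all 3 metals. The Prox1 call in nickel was lost without replicate 1, 2 or 3, without the replicate block and with all probe sets tested. Cebpb, a C/EBP factor of the acute phase response, rose by 0.48 in nickel (adjusted p = 0.015) and 0.53 in cadmium (adjusted p = 0.008). The Cebpb call in nickel was lost without replicate 1, 2 or 3, that in cadmium without replicate 3 or 4, and both without the replicate block. Among hepatocyte markers, 3 of 6 tested fell in nickel, 6 of 6 in chromium and 5 of 6 in cadmium, with Tat, the tyrosine aminotransferase, at -1.14 in chromium and -0.99 in cadmium. The part of cell death and of a general loss of liver gene expression in the members' values was not tested.

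**Figure D4:**
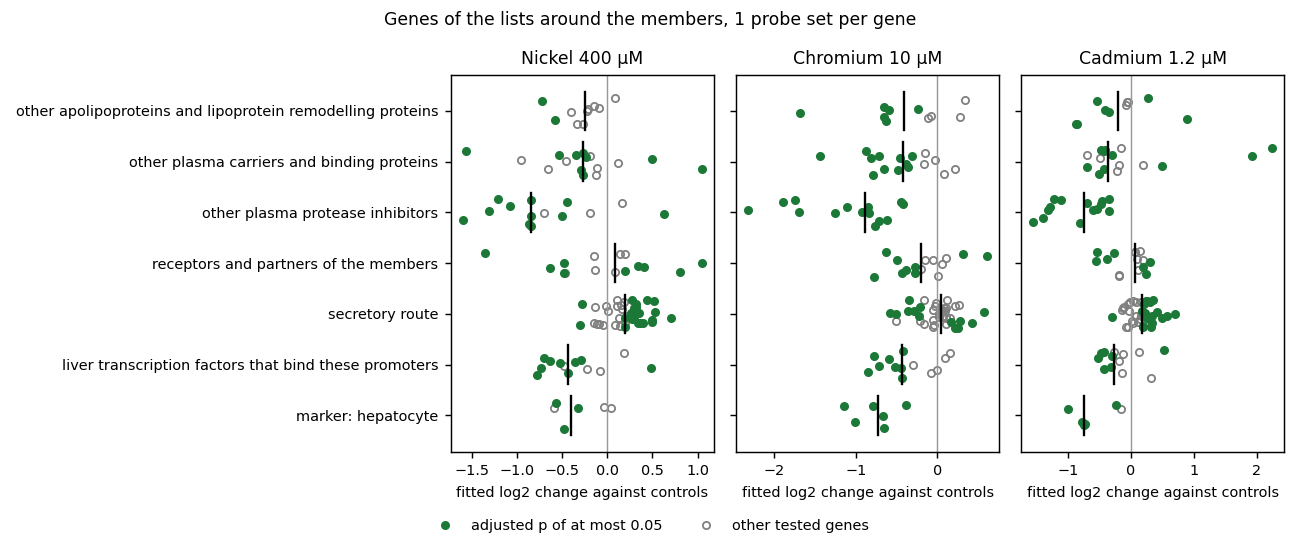
Fitted log2 change (x axis) of each tested gene of the lists around the members, 1 probe set per gene, at the high concentration of each metal; rows are lists, filled points have an adjusted p of at most 0.05 and black bars are medians. All 14 protease inhibitors lie below 0 in chromium and cadmium, while most called genes of the secretory route lie above 0 in nickel and cadmium.

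For Alb, Afp and Apoa1, the genes whose 10 condition means were most like theirs were sought among tested probe sets naming 1 gene, as a description over 10 means that all share the same arrays. Apoa1 itself did not pass the filter. Nearest to Alb (1367555_at) were Plpbp (Pearson r of 0.981), Apex1 (0.980), Stard10 (0.974), C12h12orf43 (0.972) and Akr1c14 (0.964). For Afp they were Olfml2a (0.995), Rmdn2 (0.988), Camk1 (0.987), Irgm2 (0.985) and Caprin1 (0.984). For Apoa1 they were Pcnx4 (0.950), Slc6a6 (0.941), Rell2 (0.932), Ift25 (0.924) and Sowahb (0.919). The likeness concerns the shape and not the size of the change: Caprin1 had a mean difference of -0.20 at 400 µM nickel, against -1.75 for Afp.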

How the data were processed

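RNA was measured on 44 rat expression arrays of 1 type. Per the submitters' processing notes and methods, the deposited table holds log2 values that the authors obtained with RMA (background correction, quantile normalisation and probe summary) in Partek. Of 31042 probe sets that are not array controls, 51.6% that reached 5.91 log2 on every array of at least 1 condition were tested, 1 metal at a time. The model (limma 3.58.1 under R 4.3.3) held terms for concentration and replicate, used the mean of both control arrays in each replicate, and called an adjusted p (Benjamini-Hochberg) of at most 0.05. The number of arrays limits the precision. Per the methods, cells were exposed in flasks and each condition had 4 biological replicates.

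Conditions were assigned by place in the series order. The order was found in earlier work on these same values, and its only use of the study's table of average changes was this check: over 992 probe sets, the differences of condition means from controls departed from that table by at most 7.5e-06 log2, against a median of 0.164 and a largest departure of 4.32 with the labels as given. The check covers condition means, so replicate numbers within a condition rest on the order alone. Deviations from the group mean at the high concentration correlated with those of the same-numbered controls at 0.30 to 0.43 in nickel, 0.45 to 0.64 in chromium and 0.40 to 0.63 in cadmium, and with those of other-numbered controls at up to 0.26, 0.49 and 0.44. The numbers were taken to pair the samples because every same-numbered pair was over 0.1. Other-numbered pairs also reached values over 0.1, and in chromium and cadmium the highest of them exceeded the lowest same-numbered pair. That bar therefore cannot settle the pairing.

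Members, lists and alternatives were chosen with earlier results of these data known. All member probe sets are described, with up to 3 list genes with the largest rise and fall per list and high concentration. Srprb and Acta2 fall outside that rule and were named after their values were seen. For list genes with several probe sets, the tested one with the highest mean was used. The threshold of the methods, the labels as given, other designs and left-out replicates were alternatives. The nickel fit was also run on simulated data with known changes, and its outcome is not given here. Columns of the value table without a sample numbered 0.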

Additional observations from a re-analysis of the deposited data

Results flagged for a closer look

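Of 120 groups of arrays, 7 held an array whose gap to the nearest other array, divided by the range of the group, was above the critical value of Dixon's test, where chance gives about 1 in 20. The lowest control, an array of replicate 4, stood apart for Alb 1367555_at (ratio 0.635, 14.38 against 14.53 to 14.62), for Alb 1367556_s_at (0.812, 14.06 against 14.31 to 14.37) and for Selenop (0.591, 11.78 against 12.04 to 12.22). Without this control array 7 members were called lower in each metal at the high concentration, against 6 in nickel, 5 in chromium and 6 in cadmium with it. Replicate 3 at 0.2 µM cadmium was high for Alb 1367556_s_at (0.841, 14.42 against 14.33 to 14.34). Replicate 4 at 0.275 µM chromium, a repeated microarray by its title, was low for Rbp4 (0.942, 10.03 against 10.45 to 10.47). At 10 µM chromium, replicate 4 was high for Selenop (0.982, 11.25 against 11.04 on the 3 others) and replicate 1 for Serpina1 (0.894, 9.95 against 9.67 to 9.70).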

How the results depend on the processing

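The assignment of arrays mattered most. With the labels as given, limma called 0 probe sets, members and list genes in each metal at the high concentration, with an unadjusted p under 0.05 for 2752 probe sets in nickel, 2880 in chromium and 1046 in cadmium. In cadmium Ttr and Alb 1367556_s_at then changed sign, both to 0.04. Over arrays on which label and order agree, cadmium had replicate 1 alone at 1.2 µM, so no test was possible.

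In nickel 6411 probe sets, 6 members lower, 1 higher, 29 list genes up and 33 down became, in replicates 1 and 2 only, 52 list genes down. In replicates 3 and 4 only, an alternative chosen after seeing the data, the nickel values were 2322 probe sets, 2 members lower and 0 higher, and 19 list genes up and 5 down. The threshold of the methods gave 322 probe sets, 0 members and 1 list gene up and 0 down. The member called higher was also lost (0) with all probe sets tested, with median-centred arrays and with all 3 metals in 1 fit. Leaving out 1 replicate gave 3783 to 6740 probe sets, 2 to 7 members lower, 0 to 1 higher, and 19 to 31 list genes up and 10 to 36 down.

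In chromium 6754 probe sets, 5 members lower, 8 list genes up and 53 down became 435 probe sets with 0 list genes up and 10 down at the threshold of the methods. In replicates 1 and 2 only, 5 list genes were up. In replicates 3 and 4 only, the values were 3240 probe sets and 4 list genes up. Leaving out 1 replicate gave 4715 to 6891 probe sets, 5 to 7 members lower, and 4 to 10 list genes up and 47 to 56 down.

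In cadmium 6053 probe sets, 6 members lower, 28 list genes up and 37 down became 267, 2, 3 and 8 at the threshold of the methods, and 2 members were lower with all 3 metals in 1 fit. Leaving out 1 replicate gave 3529 (without replicate 3) to 7260 probe sets, 4 to 6 members lower, and 13 to 35 list genes up and 33 to 37 down.

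Without the replicate block, calls numbered 3927 probe sets in nickel, with 0 members higher and 19 list genes down. In chromium 5 list genes were then up, and in cadmium it was 3897 probe sets and 17 list genes up. Members called lower were then 5, 5 and 4 in nickel, chromium and cadmium. The share of lower calls at the threshold of the methods was 28.3% in nickel, 58.2% in chromium and 24.0% in cadmium. The cause of these shifts was not tested.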
